A study of Mus musculus with 4 samples.

Results

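Broad domains of histone H3 trimethylated at lysine 4 (H3K4me3) were described in control mouse embryonic stem cells. In the library from cells with a scrambled short hairpin RNA (shRNA), chromosomes 1 to 19 of mm9 were cut into bins of 1 kb from base 0. The domains were chosen by these reads: a bin was marked when it held at least 10 reads, counted as distinct 5′ positions moved 75 bases inwards, and 4 or more adjacent marked bins made a broad domain. The rule gave 1629 domains among 29420 runs of marked bins, of which 15781 were 1 bin long, 9135 were 2 bins and 2875 were 3 bins. The domains covered 8467 kb, or 0.342% of the bins of these chromosomes, and held 10.1% of the scramble library's reads there. Their median length was 4 kb. Because scramble reads chose the domains, lengths and scramble levels below are descriptions, and so is every ratio that has them in its denominator.

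The study set Jarid1b beside H3K4me3 in 4 chromatin immunoprecipitation sequencing (ChIP-seq) libraries of mouse stem cells. The 2 Jarid1b libraries came from cells labelled E14 ESCs. The scramble H3K4me3 library came from cells labelled LKO Scr ESCs and the knockdown H3K4me3 library from cells labelled LKO Jarid1b ESCs, 1 library each. The parent line is E14TG2a.4, which needs no feeder cells and was kept on gelatin with serum and LIF. Both shRNA lines were made with pLKO.1 lentivirus and kept under puromycin, and the labels do not say whether the selected cells were a pool or 1 clone.

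H3K4me3 marks the first nucleosomes of active and of CpG-rich promoters, where Set1 and Mll complexes deposit it and demethylases of the Kdm5 family remove it. Jarid1b, encoded by Kdm5b, is 1 of these demethylases. At most promoters the mark forms a short peak next to the transcription start site (TSS), while at a minority it stretches for several kilobases into the gene. Such broad domains are known for their frequency at cell identity genes and at highly transcribed genes.

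Sequences from 4 domains show the composition on which much of what follows turns. Each is the window of 300 bases without an annotated exon that held the most depth-scaled reads over both H3K4me3 libraries, on the plus strand of mm9, with CG dinucleotides in capitals. Usf2 and Axin2 lie in domains with more reads in the knockdown library, Zfp42 in a domain with fewer, and Nanog is a regulator of pluripotency.
Usf2 (chr7:31742001-31742300): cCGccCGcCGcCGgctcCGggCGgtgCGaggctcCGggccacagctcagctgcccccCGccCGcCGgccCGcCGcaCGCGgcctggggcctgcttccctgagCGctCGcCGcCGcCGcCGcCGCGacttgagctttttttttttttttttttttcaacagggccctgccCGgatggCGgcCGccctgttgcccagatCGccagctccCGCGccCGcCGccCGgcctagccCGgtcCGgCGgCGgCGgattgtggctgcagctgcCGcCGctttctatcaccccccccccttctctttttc
Axin2 (chr11:108783311-108783610): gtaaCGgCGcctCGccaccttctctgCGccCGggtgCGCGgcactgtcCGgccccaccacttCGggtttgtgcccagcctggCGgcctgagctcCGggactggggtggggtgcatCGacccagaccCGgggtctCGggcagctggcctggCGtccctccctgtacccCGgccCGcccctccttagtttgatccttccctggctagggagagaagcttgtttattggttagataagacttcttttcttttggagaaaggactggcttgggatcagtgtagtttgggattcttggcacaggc
Zfp42 (chr8:44390891-44391190): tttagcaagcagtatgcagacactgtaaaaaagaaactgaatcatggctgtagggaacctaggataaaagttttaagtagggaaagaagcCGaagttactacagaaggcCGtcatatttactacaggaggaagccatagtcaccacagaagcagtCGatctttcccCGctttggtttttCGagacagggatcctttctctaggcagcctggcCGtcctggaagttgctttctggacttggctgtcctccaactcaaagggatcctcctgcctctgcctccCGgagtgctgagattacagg
Nanog (chr6:122658401-122658700): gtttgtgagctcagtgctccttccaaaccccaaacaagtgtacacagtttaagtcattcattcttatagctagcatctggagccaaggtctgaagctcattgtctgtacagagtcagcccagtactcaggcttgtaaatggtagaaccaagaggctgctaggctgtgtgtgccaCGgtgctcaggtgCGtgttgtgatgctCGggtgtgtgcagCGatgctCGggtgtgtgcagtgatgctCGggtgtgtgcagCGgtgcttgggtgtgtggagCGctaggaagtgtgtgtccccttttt
The Usf2 window held 39 CG dinucleotides at 73.0% GC, and the Axin2 window held 17 at 62.3% GC. The windows of Zfp42 and Nanog held 7 and 8 CG dinucleotides at 48.3% and 52.7% GC. In the Usf2 window there were 8 scramble and 31 knockdown reads, and in the Axin2 window 7 and 20. In the Zfp42 window there were 73 scramble and 16 knockdown reads, and in the Nanog window 130 and 40. The Usf2 window lies just upstream of the gene, and the other 3 lie in introns.

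The libraries kept 5158330 scramble H3K4me3 reads, 2635705 knockdown H3K4me3 reads, and 4336767 and 1602370 Jarid1b reads, so a ratio of 1 at equal level needs 1.96 scramble reads for each knockdown read. Repeated positions made up 31.5% of the scramble rows on these chromosomes and 7.56% of the knockdown rows. Of the Jarid1b replicate 2 positions, 164650 (10.3%) were also in replicate 1, where uniform placement would give 1366. Over 1551 domains with Jarid1b under 3-fold (defined with the Jarid1b results) and at least 10 reads, the chi-square between the replicates' counts was 0.897 per degree of freedom, a difference below sampling noise. Over all 1624 domains with that many reads it was 2.29, so the replicates do differ where Jarid1b is high. Because of the shared positions the replicates were taken as 1 sample, and folds are their mean. Enrichment calls below needed each replicate to pass, which cannot be read as agreement of independent samples. With 1 library per condition no test between conditions was possible, and 95% intervals below are exact Clopper-Pearson intervals that cover counting error only. Promoters of stem cell markers held a median of 199 scramble and 53 knockdown reads within 1 kb of the TSS. The medians were 3.5 and 4.5 for fibroblast markers, 4 and 2 for blood and liver markers and 19 and 23.5 for neuron and glia markers, and no marker of those 3 lists lay in a domain.

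Among domains with Jarid1b under 3-fold, the 20 longest spanned 11 to 21 kb. Trim71, an RNA-binding regulator of stem cells, carried the longest at 21 kb (chr9:114453001-114474000), with 908 scramble, 546 knockdown, 122 Jarid1b replicate 1 and 37 replicate 2 reads. Esrrb, an orphan nuclear receptor of the pluripotency network, followed with 20 kb around an internal transcript start (chr12:87808001-87828000) and 980, 434, 101 and 46 reads in the same order. Mybl2, a cell cycle transcription factor, held 18 kb (880 scramble and 386 knockdown reads). Ctbp2, a corepressor, held 17 kb (682 and 446 reads). The annotation also sets the 5′ end of Fgfr2, a fibroblast growth factor receptor, in this domain, by a gene entry of 3009 kb. Whether Fgfr2 starts there in these cells was not tested.

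A group of 3 domains of 16 kb came next. Zfp42, which encodes the stem cell marker Rex1, held 891 scramble but 195 knockdown reads (chr8:44379001-44395000), a log2 ratio of -1.22 (95% interval -1.45 to -0.998). Within Tet1, which encodes an enzyme that oxidizes 5-methylcytosine, a domain that stops in the bin before the annotated start held 902 and 271 reads (log2 ratio -0.77). Myo10, an unconventional myosin, held 615 and 165 reads around an internal transcript start (log2 ratio -0.93). Only the Zfp42 domain of these 3 was called lower by the rule given below. Etv5, an ETS transcription factor downstream of growth factor signalling, and Bcat2, a branched-chain aminotransferase, each held 15 kb, and Tdh, the threonine dehydrogenase of mouse stem cells, held 13 kb.

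**Figure D1:**
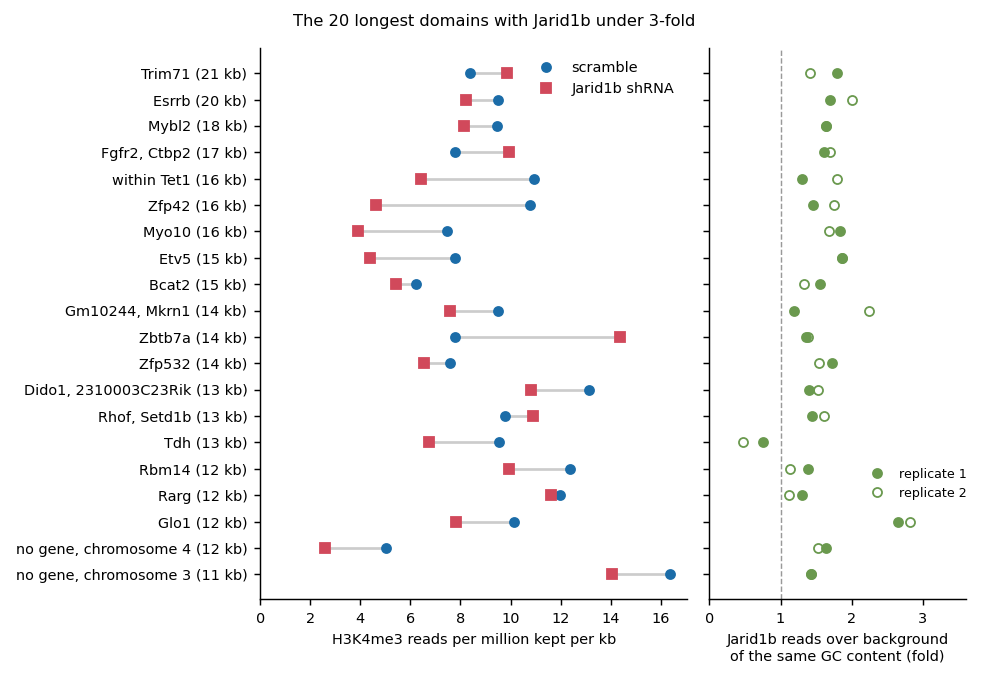
The 20 longest domains with Jarid1b under 3-fold, by gene. Left, H3K4me3 RPM (reads scaled to the library total) per kb in the scramble (circles) and knockdown library (squares); right, Jarid1b reads over background bins of the same GC content in the 2 replicates, with 1-fold dashed. Zbtb7a, Trim71, Rhof with Setd1b, and Fgfr2 with Ctbp2 lie higher in the knockdown library and the other 16 lower.

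These long domains were uneven inside. The 21 bins at Trim71 ranged from 11 to 167 scramble reads with a median of 26, and those at Esrrb from 12 to 264 with a median of 26.5. One domain differed from this: a stretch of 11 kb without an annotated gene on chromosome 3 (chr3:6297001-6308000) held 57 to 98 scramble reads in every bin, and 5% of its sampled 32-base words were unique in mm9.

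Some of the longest domains stood apart by their Jarid1b reads and their sequence. Of the 1629 domains, 73 held at least 3 times the Jarid1b reads of background bins with the same GC content. They made up 617 kb, held 12.2% of the scramble reads and 56.9% of the Jarid1b replicate 1 reads of all domains, and had a median of 21.9% unique 32-base words, against 97.5% in the other 1556 domains. The longest, 77 kb at Sfi1 (chr11:3023001-3100000), held 3683 scramble, 2076 knockdown, 4638 Jarid1b replicate 1 and 1752 replicate 2 reads, with 80.5% unique words. A domain of 40 kb with 12 predicted genes at the start of chromosome 9 (chr9:2999001-3039000) held 31434, 13053, 26170 and 16215 reads, with 8.59% unique words. Other members lay without a gene on chromosome 8 (19 kb, 388 scramble and 399 Jarid1b replicate 1 reads) and on chromosome 6 (18 kb, 884 and 710 reads). Whether their reads came from these copies or from others cannot be told apart, so the 73 domains are set aside where they move a result.

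At the edge of the definition the domains were weak. The 3 just inside were a domain at Gm6483 (44 scramble reads, weakest bin 10), a domain within Phf17 (46 reads) and a domain within Lama5 (48 reads). Just outside were 3-bin runs with far more reads: 752 on chromosome 8, 498 on chromosome 4 and 480 on chromosome 5, each flanked by bins under the minimum, which held 1 to 9 reads. All 3 of these runs held more reads than the median domain, which held 258.

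Most domains held the start of a coding gene. A protein-coding TSS (GENCODE vM1, the gene's 5′ end) lay in 1202 of 1629 domains, or 73.8% (Wilson 95% interval 71.6 to 75.9%), and 277 held 2 or more. The share was 14.9% for runs of 1 bin, 53.8% for 2 bins and 73.1% for 3 bins, and it did not go on increasing among the domains: 74.8% at 4 kb and 59.7% at 10 kb or more, or 70.0% there without the 73 domains. In all, 1516 of 21418 autosomal coding genes (7.08%) had their TSS in a domain, which was 12.8% of the 11877 genes with their TSS in any run.

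Gene lists differed widely in how often their members sat in a domain, and 7.08% is the share to read them against. Pluripotency regulators did so in 25 of 32 cases (78.1%). Besides Zfp42 these included Sall4 (11 kb), Sox2 (10 kb, 672 scramble and 336 knockdown reads), Nanog (9 kb, 578 and 209), Tdgf1, which encodes the Nodal coreceptor Cripto (9 kb, 677 and 184), and Pou5f1, which encodes Oct4 (8 kb, 890 and 285). Ribosomal protein genes reached a similar share, 59 of 75 (78.7%), among them Rpl23a at 10 kb. Housekeeping genes had 19 of 26 (73.1%), with Hsp90aa1, a cytosolic chaperone, at 11 kb and Pkm2, a pyruvate kinase, at 10 kb, and splicing factor genes had 24 of 34 (70.6%). The shares of ribosomal protein genes and of pluripotency regulators lay side by side, as did those of housekeeping and splicing factor genes.

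Signalling genes came next. Feedback regulators and targets of signalling pathways sat in domains in 21 of 35 cases (60%): Spry4 (10 kb), Spry2 (8 kb) and Dusp6 (6 kb) act on growth factor signalling, Smad7 (8 kb) inhibits TGF-β receptors, and Socs3 (7 kb) restrains the LIF pathway. Immediate early genes, which serum induces, gave 8 of 20, among them Ier2 (8 kb) and Myc (6 kb). H3K4 methylation regulators gave 8 of 19, and Polycomb genes 8 of 30, with Pcgf2 and Mtf2 at 9 kb and Jarid2 at 8 kb. Cell cycle genes gave 9 of 37. Replication-dependent histone genes gave 29 of 67, but in only 11 domains, since these short genes lie side by side and several can share a domain.

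Genes of other lineages gave few or none. Neural regulators gave 3 of 51 (5.88%), near the share of all coding genes: Zic2 (7 kb, 436 scramble and 360 knockdown reads), its neighbour Zic5 (5 kb, 381 and 309) and Sox21 (4 kb, 194 and 133). Fibroblast genes gave 1 of 22 (4.55%), the fibronectin gene Fn1. None of 38 Hox genes, 37 genes that specify mesoderm, endoderm or trophoblast, 20 blood and liver genes or 28 tissue genes silent in stem cells had its TSS in a domain. Of these, 8 Hox genes and 16 of the mesoderm, endoderm or trophoblast genes lay in runs of 1 to 3 bins.

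**Figure D2:**
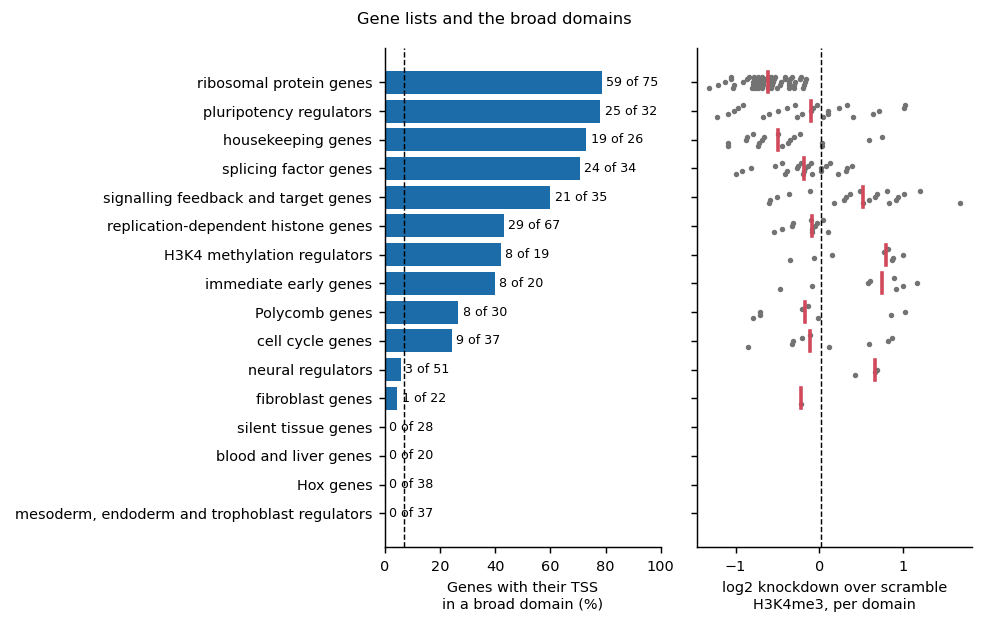
Left, percent of each list's autosomal genes with their TSS in a broad domain, with counts; the dashed line is the share of all coding genes, 7.08%. Right, log2 ratio of knockdown to scramble H3K4me3 for each domain (dots) with the list's median (bar); the dashed line is the median over domains with a coding TSS, 0.02. All 59 ribosomal protein domains lie below 0.

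Width came from the gene side of the start. Among 906 domains with exactly 1 coding TSS and Jarid1b under 3-fold, 791 (87.3%) reached farther downstream than upstream of it. Shorter runs leaned the same way, with shares of 75.9%, 82.2% and 81.3% for runs of 1, 2 and 3 bins. The median upstream reach stayed between 1.27 and 1.86 kb over the classes from 4 kb to 10 kb or more, while the median downstream reach went from 2.72 kb to 9.61 kb. A domain ran to the 3′ end of the gene in 9.49% of the 906 cases, against 1.72% to 2.67% for runs of 1 to 3 bins. Genes under the domains were also shorter, with a median of 19.5 kb against 26.1 kb for the 2-bin runs.

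The profiles around the start were read in both H3K4me3 libraries. In 206 domains of 6 kb or more, the scramble library had 26.3 RPM per kb in the first kilobase of the gene, 17.8 in the next and 8.68 from 2 to 4 kb. The knockdown library had 30.3, 14.1 and 7.41 there. The level from 2 to 4 kb was thus 0.330 of that in the first kilobase for scramble cells and 0.245 for knockdown cells. In 700 domains of 4 to 5 kb the same shares were 0.114 and 0.0877, and in 6056 runs of 2 to 3 kb they were 0.0327 and 0.0275. GC content also declined along these genes, from 61.5% in the first kilobase to 48.4% from 2 to 4 kb in the longest class, and its part in the difference between libraries was not tested here.

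**Figure D3:**
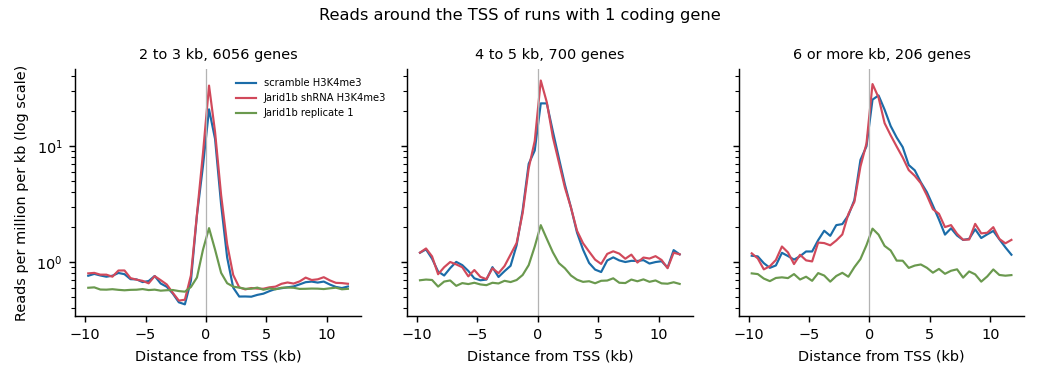
Mean RPM per kb (log scale) in windows of 500 bases by distance from the TSS, for runs with 1 coding TSS of 2 to 3 kb, 4 to 5 kb and 6 kb or more, in both H3K4me3 libraries and Jarid1b replicate 1. In the scramble library the level from 2 to 4 kb downstream is 0.53, 2.67 and 8.68 RPM per kb in the 3 classes, and from 2 to 4 kb upstream 0.56, 0.85 and 1.94.

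Longer domains were poorer in GC and in CpG. The median GC content was 52.0% at 4 kb, 51.4% at 5 kb, 51.3% at 6 to 7 kb, 50.9% at 8 to 9 kb and 48.9% at 10 kb or more. The CpG observed over expected ratio went from 0.55 at 4 kb to 0.34 at 10 kb or more, with 0.58 in runs of 3 kb. Scramble reads per kb changed little, with medians of 53.4 at 4 kb and 47.8 at 10 kb or more.

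Between the conditions, the domains as a whole stood close to level. The median log2 ratio of knockdown to scramble reads, scaled to reads kept, was -0.06 over the 1629 domains (quartiles -0.50 and 0.41), with 745 above 0 and 884 below. Calls needed a 2-fold difference or more and an interval without 1. By this rule 105 domains (6.45%) were called higher and 116 (7.12%) lower in the knockdown cells, where 12.3% of all runs were higher and 5.55% lower. Scaling by background bins moves every log2 ratio by 0.22 and turns the split to 192 higher and 66 lower. The balance of calls thus depends on the scale set between the libraries. Counting all rows in place of distinct positions changes the domains as well, to 2535, of which 316 were higher and 223 lower. Calls by these 2 alternatives were counted in domains only, so the shares of all runs above cannot be set beside them.

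The ratio went down with length: its median was 0.04 at 4 kb, -0.07 at 5 kb, -0.18 at 6 to 7 kb, -0.27 at 8 to 9 kb and -0.35 at 10 kb or more. It also followed GC content at every length. Domains under 45% GC had a median of -0.99 and those of 60% or more had 1.04, with -0.40, -0.02 and 0.46 in the classes of 45 to 50%, 50 to 55% and 55 to 60% between them. Runs of 1 to 3 bins had -0.86, -0.43, -0.03, 0.39 and 1.123 in the same 5 classes. Relative to runs of the same GC content, the medians by domain length were 0.07, 0.02, -0.04, -0.09 and 0.00. Across the 1629 domains the Spearman correlation of the ratio was 0.717 with GC content and -0.193 with length, and domains share their libraries, so these are descriptions.

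**Figure D4:**
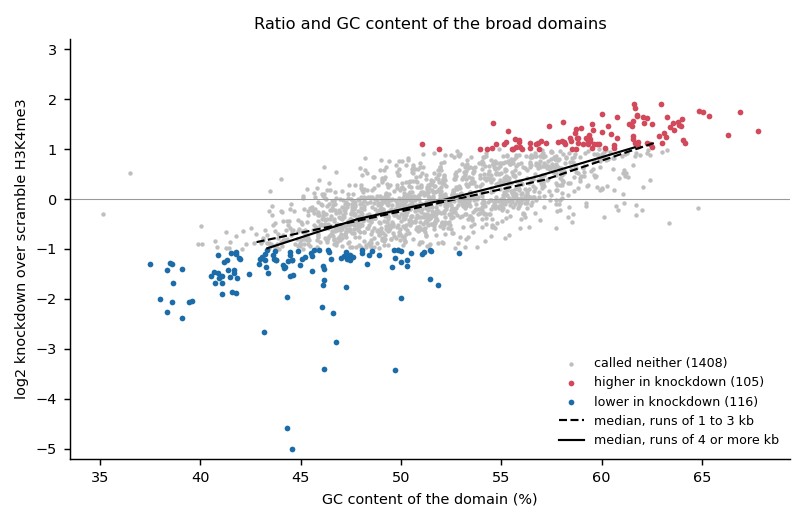
Log2 ratio of knockdown to scramble H3K4me3 against GC content for the 1629 domains, with those called higher (105) and lower (116) coloured and a domain with 0 knockdown reads drawn at -5. Lines join the medians of 5 GC classes for runs of 1 to 3 kb and of 4 kb or more, and lie close to each other.

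**Figure D5:**
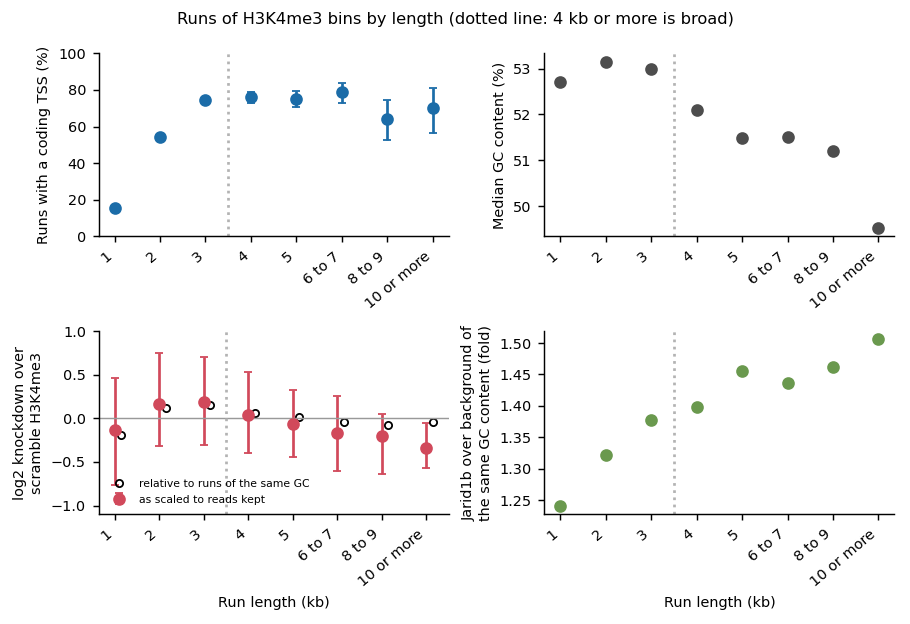
Runs with Jarid1b under 3-fold by length: share with a coding TSS (Wilson 95% intervals), median GC content, median log2 ratio of knockdown to scramble H3K4me3 with quartiles (filled) and relative to runs of the same GC content (open), and median Jarid1b fold. From 3 kb to 10 kb or more, median GC content goes from 53% to 49.5%, the median log2 ratio from 0.18 to -0.34 and the Jarid1b fold from 1.38 to 1.51, while the share with a coding TSS lies between 64.4% and 78.9%.

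Domains with more reads in the knockdown library were GC-rich, and a larger share of them than of all domains was 4 kb long or held a coding TSS. The 105 had a median GC content of 59.6%, 76 of them were 4 kb long, and 91 held a coding TSS. Of all 1629 domains, 858 were 4 kb long and 1202 held a coding TSS. Median length was 4 kb both in the 105 and in the domains called neither. Nr3c1, which encodes the glucocorticoid receptor, had the highest ratio with 105 scramble and 200 knockdown reads (log2 ratio 1.90, 95% interval 1.55 to 2.25). Usf2, a transcription factor that binds E-boxes, had 125 and 238 reads (1.90, 1.58 to 2.22). The next were Itpka (1.82), Arid1b, a subunit of BAF remodelling complexes (1.76), Zswim6 (1.75), Inhbb, which encodes a subunit of activin B (1.74), Ppp1r9b (1.71) and Axin2, a Wnt target and inhibitor (99 and 162 reads, 1.68). All 8 had over 60% GC. Relative to runs of the same GC content, Nr3c1 remained past 2-fold at 1.02, while the other 7 lay between 0.41 and 0.94.

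Domains with fewer reads in the knockdown library were GC-poor and often in repeated sequence. The 116 had a median GC content of 44.5%, 45 held a coding TSS and 24 were among the 73 with high Jarid1b. In 34 of them under 50% of 32-base words were unique, against 3 of the 105 higher domains and 58 of the 1408 others. A domain of 5 kb on chromosome 18 (chr18:7319001-7324000) held 100 scramble and 0 knockdown reads, at least 17.0-fold lower at a floor of 3 reads, and 14.0% of its words were unique. A domain within Gm8257 held 94 and 2 reads, a ratio of -4.59 (95% interval -7.65 to -2.69), with 16.0% unique words. Sp110, which encodes a nuclear body protein of immune cells, held 125 and 6 reads over 10 kb (46.5% unique words), and a neighbouring 6 kb with the starts of Sp110 and Sp140 held 86 and 6.

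Others of the lowest ratios lay in mostly unique sequence. Hmgxb4, which encodes an HMG-box protein, held 237 scramble and 19 knockdown reads in a domain around an internal transcript start (chr8:77540001-77544000; log2 ratio -2.67, -3.43 to -1.997), and all its sampled words were unique. A domain of 8 kb within Brd3, which encodes a BET bromodomain protein, held 168 and 8 reads (chr2:27351001-27359000; -3.42, -4.66 to -2.41), with 71.9% unique words. In both, Jarid1b stood near background, at 1.32-fold and 0.92-fold. In 10 domains no bin reached the depth-scaled minimum in the knockdown library, and in 8 of these under 50% of the words were unique.

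The gene lists differed in their ratios, also at like GC content. Over the 59 ribosomal protein domains the median log2 ratio was -0.61 at a median GC content of 49.4%, none was called higher and 7 were called lower: Rpl3, Rpl4, Rps3, Rps9, Rps12, Rps27 and Rps28. Of all 1202 domains with a coding TSS, 91 were called higher and 45 lower, and these counts are the background for each list here. Rps12 had 614 scramble and 126 knockdown reads (-1.32). Ribosomal protein genes in 12 shorter runs had a similar median, -0.69, and 4 of these runs were called lower, where 5.455% of runs of 1 to 3 bins were. Housekeeping genes had a median of -0.49, and Tubb5 (567 and 136 reads, -1.09) and Ubb (486 and 117 reads, -1.09) were called lower. Relative to runs of the same GC content the ribosomal protein domains had a median of -0.35 and the housekeeping domains -0.17. Splicing factor genes had -0.18 at 49.1% GC, or 0.11 when matched, and replication-dependent histone genes had -0.08 at 49.2% GC, or 0.24, with no call in either list. Over the 1202 domains the median was 0.02, or 0.07 relative to the same GC content.

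Of 4 lists of regulatory genes, 3 had medians above 0. Signalling feedback genes had a median of 0.52 at 57.0% GC, with Axin2, Skil (201 and 237 reads, 1.21) and Spry1 (185 and 190 reads, 1.01) called higher and none lower. Immediate early genes had 0.75, with Srf (1.16) and Fosl2 (1.001) higher, and H3K4 methylation regulators had 0.79, with Kdm2a (1.01) higher. Relative to runs of the same GC content these 3 medians were -0.03, 0.12 and 0.16. Polycomb genes had a median of -0.17 at 50.4% GC with 2 of 8 domains above 0, and Ring1 (1.03) was called higher. These lists have 1 to 3 calls each, too few to set apart from the background.

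Pluripotency regulators had a median of -0.10 at 51.9% GC, with 10 of 25 above 0, 2 called higher and 3 lower. Of the 1202 domains with a coding TSS, 622 were above 0, 91 were called higher and 45 lower. Of all 1629 domains 745 were above 0, and 6.45% and 7.12% were called. The list's calls are few, and its difference from either background was not tested. Foxd3 (268 and 278 reads, 1.02) and Tbx3 (157 and 162 reads, 1.01), both transcription factors, were called higher. Zfp42, Dppa5a (203 and 51 reads, -1.02) and Lefty1, a Nodal antagonist (154 and 37 reads, -1.09), were called lower. Pou5f1 had -0.67 and Klf4 had 0.64, and neither passed 2-fold. Tbx3 stood out most once GC content was matched, at 1.17, against -1.08 for Lefty1.

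The knocked-down gene itself carried a domain of 4 kb. Kdm5b held 231 scramble, 218 knockdown, 23 Jarid1b replicate 1 and 6 replicate 2 reads (chr1:136456001-136460000), a log2 ratio of 0.89 (95% interval 0.61 to 1.16), which misses 2-fold. Relative to runs of the same GC content it was 0.90. ChIP reads do not measure the transcript, so the depth of the knockdown was not assessed. Among the other listed H3K4 methylation regulators, Mll1 (0.82), Mll2 (0.87) and Mll3 (0.77) had ratios near that of Kdm5b, while Setd1b (0.15), Mll5 (-0.06) and Wdr5 (-0.35) lay lower.

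Pooled over the domains, the difference between the libraries varied with the position of the bins. Without the 73 domains, the log2 ratio of summed reads was 0.39 in the bins just outside, 0.00 in the edge bins, 0.12 in the second bins and -0.24 in all bins farther in. Edges were set in the scramble library, which lowers its reads outside and raises them inside. Bins of 45 to 50% GC had -0.34 at the edge, -0.71 in second position and -0.73 farther in, and bins of 55 to 60% GC had 0.24, -0.06 and -0.14. In these GC classes the second and inner bins were thus close to each other and lower than the edges. Domains of 4 kb, 835 of the 1556 used here, have no inner bin. Position and domain length are therefore mixed in the inner bins and cannot be told apart here.

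Most domains were found again in the knockdown library. At a minimum of 5 reads, which scales 10 to its depth, 88.0% of the domains' bins were marked, and 1259 domains (77.3%) lay by at least 50% of their bins in a knockdown run of 4 or more bins. The share was 71.2% at 4 kb, 82.3% at 5 kb, 85.2% at 6 to 7 kb, 92.7% at 8 to 9 kb and 79.1% at 10 kb or more. The widest knockdown run over a domain was longer in 392 cases, shorter in 569 and equal in 668. With scramble reads thinned to the knockdown total of distinct positions and 10 reads in both, 64.2% of 710 scramble domains were found again and 60.9% of 751 knockdown domains were found in the scramble library.

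The knockdown library held 2156 broad runs by the scaled rule, of which 875 met no scramble domain. Of these, 521 held a scramble run of 3 bins and 24 held none. The longest, 53 kb without a coding TSS on chromosome 8 (chr8:126061001-126114000), held 394 scramble, 763 knockdown and 1189 Jarid1b replicate 1 reads. Hic1, which encodes a transcriptional repressor, held 10 kb with 130 scramble and 191 knockdown reads.

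Jarid1b reads had no part in the rule, but the background they are set against was chosen partly by scramble reads. Fold here is reads over those expected from background bins of the same GC content, as the mean of both replicates. These bins lay more than 5 kb from any TSS and held fewer than 10 scramble reads. The median fold was 1.45 over the domains, with a median of 23 and 9 reads per domain in replicates 1 and 2, against 1.29, 1.34 and 1.39 for runs of 1, 2 and 3 bins. Within the domains it went from 1.42 at 4 kb to 1.62 at 10 kb or more, or 1.40 to 1.51 without the 73 domains. By a one-sided Poisson test adjusted by the Benjamini-Hochberg method over all runs, 120 domains (7.37%) were called enriched in both replicates, where 2.6% of all runs were. With replicate 1 alone 455 domains were called, where 9.86% of all runs were. With replicate 2 alone 150 domains were called, where 3.66% of all runs were. Without the 73 domains 49 (3.15%) were called, against 0.498% of all runs chosen in the same way. That choice removes runs by the same fold that the call tests. It took the calls among 1-bin runs from 368 to 3, so no conclusion is drawn from these shares. Since longer runs hold more expected reads, they can pass at a lower fold.

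Some list members in domains had high Jarid1b folds, while list medians varied. The medians were 2.36 for the 3 neural domains, 1.69 for immediate early, 1.67 for pluripotency and 1.65 for signalling feedback domains. They were 1.38 for H3K4 methylation regulators and 1.29 for Polycomb genes, against 1.42 over all domains with a coding TSS. Called enriched were, in the order of these lists, 1 of 3, 2 of 8, 5 of 25, 3 of 21, 0 of 8 and 0 of 8. Of all domains, 7.37% were called. Zic2 had 2.75-fold, Lef1, a Wnt effector, 2.58-fold, Lefty2 2.47-fold, Foxd3 2.45-fold and Sox21 2.36-fold. Nanog had 2.27-fold (45 and 19 reads) and Pou5f1 2.11-fold (61 and 24 reads). Eef2, which encodes a translation elongation factor, had 3.45-fold and is among the 73 domains. Glo1, which encodes a glyoxalase, had 2.73-fold over 12 kb, the highest of the 20 longest domains with Jarid1b under 3-fold, and Tdh had the lowest, 0.62-fold with 25 and 6 reads.

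A minority of domains held no gene-level coding start. Of 427 such domains, 131 held another annotated start of a coding gene, as at Esrrb, Myo10, Etv5 and Zbtb7a, 111 lay inside a coding gene and 185 outside any; 46 of the 427 belonged to the 73. Of the 427, 70 held the TSS of a gene of another biotype. Over all domains, 102 of 1232 autosomal lincRNA genes (8.28%) and 134 of 1458 snoRNA genes (9.19%) started in a domain, near the 7.08% of coding genes, and 45 of 1468 miRNA genes (3.07%) did. A domain of 11 kb overlapping Frmd8 held the start of Neat1, the long non-coding RNA of paraspeckles, with 570 scramble and 141 knockdown reads (log2 ratio -1.05, 95% interval -1.32 to -0.78). A domain of 12 kb without a gene on chromosome 4 (chr4:140837001-140849000) held 311 and 82 reads and 93.8% unique words.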

How the data were processed

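In the 4 deposited files a row stands for an aligned read, and the score column is 0 in every row, so no value computed by the authors was used. Per the labels' protocols, the authors aligned reads to mm9 with Bowtie (its version: not given in the sources used here). They also name 1 match per position, MACS peaks and IgG normalization, which the rows do not carry: positions repeat and no peak is listed. An IgG library was not used here. For each chromosome and strand, reads with the same 5′ position were counted once, moved 75 bases inwards and summed in 1 kb bins. Sequence, GC content and genes came from NCBIM37 and GENCODE vM1, both on mm9. Uniqueness is the share of 32-base words, sampled every 50 bases, that occur once in the assembly. The members, gene lists and named regions were chosen with earlier results of these data known. Named are the 15 longest domains, the 8 highest and 8 lowest ratios, the 8 highest Jarid1b folds, the 5 longest without a coding TSS, 3 domains at each side of the threshold, up to 6 genes per list by length, and Kdm5b; any other was chosen after its values were seen, and a few items are not reported here. The 3-fold Jarid1b and 50% uniqueness limits were set after seeing the data. The ratio and Poisson calls were tested on simulated data. Tools were Python 3.11.15, numpy 2.4.6, pandas 2.3.3, scipy 1.17.1 and matplotlib 3.10.9.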

Additional observations from a re-analysis of the deposited data

Results flagged for a closer look

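Chromosome X lies outside the definition used above, and the scramble library held 44 runs of 4 or more marked bins there. They include Hcfc1, Tcfe3 and Huwe1 at 5 kb each and Rps4x at 4 kb. A run of 25 kb at Gm17379 held 1921 scramble and 927 knockdown reads. At the other end, 8 runs without a coding TSS held 58 to 189 scramble reads and 1 or 2 knockdown reads. All but the run from chrX:143701001 lay close together, between chrX:120114001 and chrX:121315000. The share of unique words was not computed for runs of chromosome X, so whether these runs are repeated sequence was not tested.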

How the results depend on the processing

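The number of domains, 1629, became 986 and 688 at 15 and 20 reads per bin, 4504 and 392 at 3 and 6 or more bins, 2535 with all rows, and 710 with the scramble library thinned to the knockdown total. The share with a coding TSS, 73.8%, was 71.02% at 8 reads, 70.9% at 6 or more bins, 71.5% with all rows, 70.1% with gaps of 1 bin bridged, 81.8% over every coding transcript start, and 76.6% without domains under 50% unique words, an alternative chosen after seeing the data. The median log2 ratio and the domains called higher and lower were 0.16, 192 and 66 scaled by background bins, 0.029, 24 and 33 relative to the same GC class, 0.047, 316 and 223 with all rows, -0.22, 13 and 48 at 6 or more bins, and -0.15, 32 and 64 at 20 reads. With domains set in one set of scramble reads and measured in the rest, they were -0.03, 139 and 131. Under these settings calls were counted in domains only, without a share over all runs. Domains found again, 77.3%, came to 37.1% at 10 knockdown reads, 64.2% with thinned reads and 71.9% with all rows. The Jarid1b fold of 1.45 was 2.87 over the genome rate and 1.65 over the larger of genome and local rate, and the 120 calls became 892 and 342. At these 2 rates 25.2% and 10.4% of all runs were called, against 2.6% in the main setting. Calls in domains were 184 with all rows, where 2.01% of all runs were called. By limits chosen after seeing the data, they were 49 without domains of 3-fold Jarid1b and 68 without those under 50% unique words. Leaving out a Jarid1b replicate gave 150 to 455 calls at folds of 1.45 to 1.46: 150 without replicate 1 and 455 without replicate 2. Of all runs, 3.66% and 9.86% were then called. Of 64 values for 16 named domains, 57 kept their call, 7 lost it relative to the same GC class, and 0 reversed. The cause of these changes was not tested. No paired analysis was possible because each H3K4me3 condition has 1 library. The Jarid1b depth, a median of 23 and 9 reads per domain, limits what single domains can show.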
